A study of Mus musculus with 23 samples.

Results

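*Mamdc2*, *Wif1*, *Yipf7* and *Corin* are 4 genes of the 18876 in the count table that were at about 1 CPM or less (reads of a gene scaled to library size) in every Control WT sample and were counted in every Control *APP/PS1* sample of the study. They were chosen by those values, with earlier results of the whole study known, so their levels in Control samples are described here without a test. The test of genotype compared the *Slc11a2* KD groups, whose values the rule did not use. Its variance was estimated over all 4 groups, so in that part it drew on Control samples too. Comparisons and relations that include Control samples rest in part on values that the rule did use. RNA was sequenced in bulk from cells that magnetic beads against CD11b, an integrin of microglia and related myeloid cells, had pulled from the hippocampi of female mice.

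All mice carried homozygous floxed *Slc11a2*, which encodes the iron importer DMT1, and 1 copy of *Cx3cr1* Cre-ERT2, a tamoxifen-inducible recombinase made in microglia and other macrophages that express *Cx3cr1*. They were of a mixed 129S and C57BL/6J background. *APP/PS1* mice were hemizygous for a mutant amyloid precursor protein and a mutant presenilin-1, both expressed from the mouse prion protein (*Prnp*) promoter, and WT mice were littermates without these transgenes. *Slc11a2* KD mice were gavaged at an age of 5 to 6 months with 4 mg of tamoxifen daily for 5 days, and Control mice received corn oil, so that knockdown and tamoxifen cannot be told apart. All were killed at 15 to 18 months. The samples used were 6 WT and 6 *APP/PS1* of the Control mice and 5 of each genotype of the *Slc11a2* KD mice. A further Control *APP/PS1* sample, 0010, is kept out of the groups, and its values are given apart. The study asked how loss of the iron importer changes microglia in the presence of amyloid.

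As background, microglia that gather around amyloid plaques lose part of their resting program and take on another, known as that of disease-associated microglia, in which lipid handling, lysosomal and secreted genes rise. *Mamdc2* encodes a secreted protein of the extracellular matrix built from MAM domains, a fold shared with several adhesion proteins. *Wif1* encodes WNT inhibitory factor 1, which is secreted and binds WNT proteins before they reach their Frizzled and LRP receptors. *Yipf7* encodes a member of the YIP family, membrane proteins of the early secretory pathway. *Corin* encodes a type II transmembrane serine protease, best known from the heart, where it cleaves pro-atrial natriuretic peptide into its active form.

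Total counts per sample ran from 31128643 to 54872491. Summed over 7 microglial marker genes, the level ran from 26769 to 41163 CPM, so the labelled cell type was present in every sample. The gene total of *Slc11a2* ran from 27.1 to 75.1 CPM in *Slc11a2* KD samples and from 29.9 to 48.2 CPM in Control samples. Only part of the gene is deleted, so this total does not check the knockdown. Libraries numbered 5 to 17 were the Control samples, and the *Slc11a2* KD samples were libraries 1 to 4 and 18 to 23. Of libraries 1 to 4, *Slc11a2* KD *APP/PS1* 0004 alone was of that genotype. Markers of choroid plexus epithelium were uneven, with a sum over 10 genes of 90.2 to 494 CPM in *Slc11a2* KD *APP/PS1* 0018, 0020, 0021 and 0023, of 2.30 CPM in 0004, and of 1.30 to 5.41 CPM in Control *APP/PS1*. In bulk RNA, fewer cells of a type and less RNA per cell cannot be told apart.

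*Mamdc2* (ENSMUSG00000033207) lies on the minus strand of chromosome 19, chr19:23279973-23425886 in GRCm39, and its canonical transcript has 14 exons. In Control WT its level was 0.224 CPM at the lowest, 0.674 CPM at the median and 1.24 CPM at the highest, from 8 to 42 counts. In Control *APP/PS1* it was 52.0 CPM at the lowest, 147 CPM at the median and 390 CPM at the highest. The lowest Control *APP/PS1* sample, 0016, was thus far above the highest Control WT sample, 0015, and the means were 191 ± 138 CPM and 0.665 ± 0.403 CPM (SD, n = 6 each). Of the 4 genes, *Mamdc2* alone was counted in every Control WT sample, and in 0015 it was above a strict limit of 1 CPM.

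The *Slc11a2* KD samples repeated this separation for *Mamdc2*. The *Slc11a2* KD WT samples 0001 and 0002 had 0 counts, 0003 had 0.420 CPM, 0022 had 0.428 CPM and 0019 had 0.951 CPM. *Slc11a2* KD *APP/PS1* 0004 had 88.3 CPM, 0023 had 163 CPM, 0021 and 0020 had 169 CPM each, and 0018 had 187 CPM. The groups did not overlap, and the *APP/PS1* values other than that of 0004 lay close together. In log2 the change was 8.75 with a standard error (SE) of 0.77 (edgeR quasi-likelihood test, adjusted p = 6.08e-08), and the ratio of group means was 431. The size rests on few WT counts: with each sample left out the log2 change ran from 8.42 to 9.52, highest without 0019.

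*Wif1* (ENSMUSG00000020218) lies on the plus strand of chromosome 10, chr10:120869865-120936555 in GRCm39, with 10 exons. It had 0 counts in all 11 WT samples, Control and *Slc11a2* KD. In Control *APP/PS1* it was 0.515 CPM in 0016, 1.24 CPM in 0017, and 19.7 CPM in the highest sample, 0007, with a median of 6.34 CPM. In *Slc11a2* KD *APP/PS1* it was 0.730 CPM in 0004, 6.18 CPM in 0021, 8.69 CPM in 0020, 12.8 CPM in 0023 and 23.6 CPM in 0018. Even the lowest of these rested on 35 counts, against none in *Slc11a2* KD WT. The mean of 10.4 ± 8.59 CPM (SD, n = 5) was at least 142-fold higher than the 0.0733 CPM that 3 counts per library would give (adjusted p = 0.00026, edgeR).

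*Yipf7* (ENSMUSG00000029158) lies on the minus strand of chromosome 5, chr5:69674011-69699991 in GRCm39, with 6 exons. It too had 0 counts in all 11 WT samples. Control *APP/PS1* values ran from 0.572 CPM in 0016 over a median of 7.02 CPM to 11.5 CPM in 0007. *Slc11a2* KD *APP/PS1* 0004 had 1.09 CPM, 0023 had 8.04 CPM, 0018 had 8.58 CPM, 0020 had 10.0 CPM and 0021 had 21.1 CPM. The 4 samples other than 0004 were above the median of Control *APP/PS1*. The *Slc11a2* KD *APP/PS1* mean of 9.76 ± 7.21 CPM (SD, n = 5) was at least 133-fold higher than this floor (adjusted p = 4.56e-05, edgeR).

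*Corin* (ENSMUSG00000005220) is on the same strand of the same chromosome, chr5:72457290-72661924 in GRCm39, with 22 exons. Its exons overlap *Gm20647*, a long non-coding RNA gene of the opposite strand that is not in the count table, so without strand in the counting its reads cannot be told from those of *Corin*. *Corin* had 0 counts in 10 of 11 WT samples and 5 counts in *Slc11a2* KD WT 0019. Control *APP/PS1* values ran from 0.191 CPM in 0016, which is 10 counts, over a median of 3.85 CPM to 9.77 CPM in 0007. In *Slc11a2* KD *APP/PS1* it was 0.480 CPM in 0004 and 0.482 CPM in 0023, while 0021 had 1.03 CPM, 0020 had 1.96 CPM and 0018 had 3.91 CPM. All 5 were above the 0.122 CPM of 0019, by a smaller distance than for the other genes. Against *Slc11a2* KD WT the log2 change was 5.85 (SE 1.198, edgeR, adjusted p = 0.00276), and without 0019 it was 9.04, a fitted value against a group at 0 counts.

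**Figure D1:**
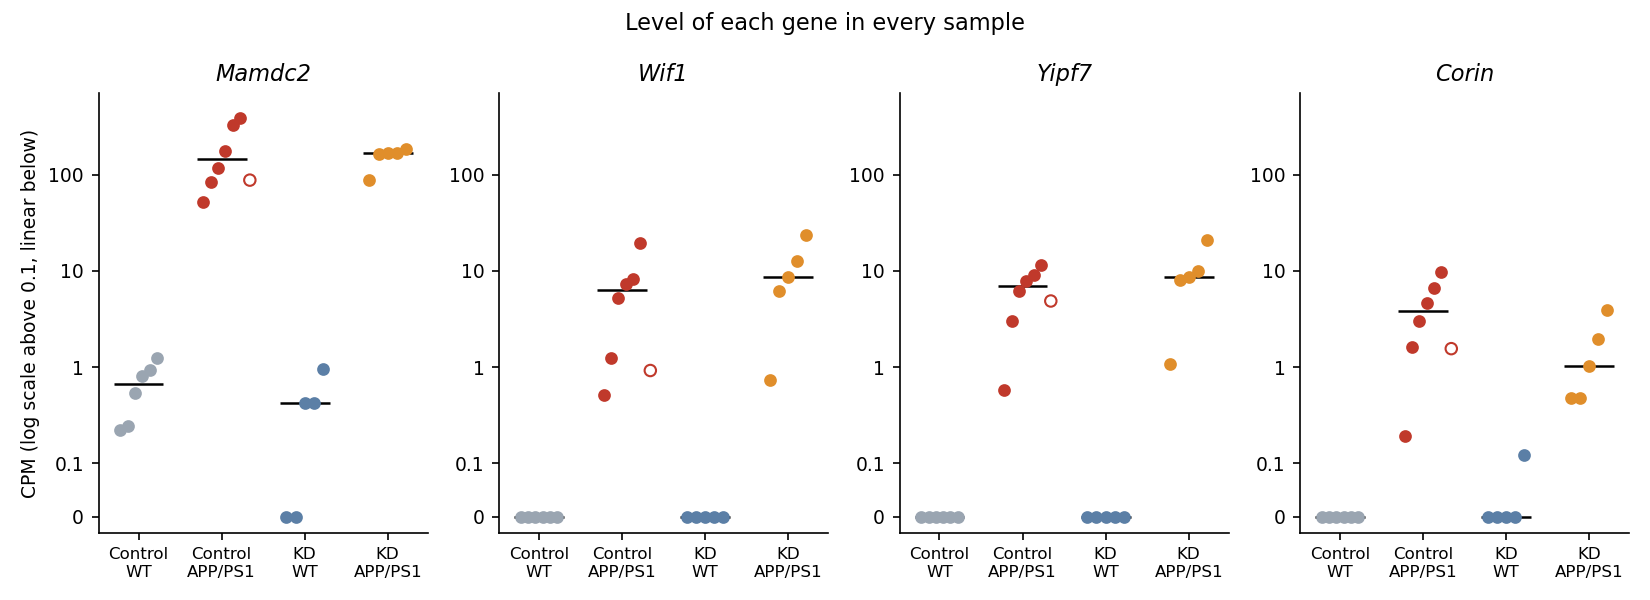
Level of *Mamdc2*, *Wif1*, *Yipf7* and *Corin* in CPM, on a log scale above 0.1 and a linear one below, in each sample of the 4 groups (filled points, with a bar at the group median). The open circle is Control *APP/PS1* 0010, scaled over 23 samples. In each panel every *APP/PS1* point is above every WT point.

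All 4 genes were thus higher in *Slc11a2* KD *APP/PS1* than in *Slc11a2* KD WT and passed the threshold of an adjusted p of 0.05, where 1832 of 18759 genes tested, or 9.77%, were higher. Fitted on the *Slc11a2* KD groups alone, the adjusted p was larger. It was 4.26e-05, 0.00169, 0.000854 and 0.0229 for *Mamdc2*, *Wif1*, *Yipf7* and *Corin* (edgeR). All 4 also had every *APP/PS1* sample above every WT sample, which 784 genes, or 4.18%, did. For single genes the exact permutation test gave p = 0.00794 for each (two-sided, n = 5 and 5), the smallest p this design allows. Within libraries 18 to 23, with 4 *APP/PS1* and 2 WT samples, the lowest *APP/PS1* values were 163, 6.18, 8.04 and 0.482 CPM for *Mamdc2*, *Wif1*, *Yipf7* and *Corin*, and the highest WT values were 0.951, 0, 0 and 0.122 CPM. There the exact p was 0.133, again the smallest possible. Within libraries 1 to 4, *Slc11a2* KD *APP/PS1* 0004 was above all 3 WT samples for each gene, with no test possible on 1 sample.

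Levels were compared between genes per kilobase of exon. In *Slc11a2* KD *APP/PS1*, *Mamdc2* stood at 43.9 ± 10.9 CPM per kb, *Yipf7* at 5.34 ± 3.94, *Wif1* at 4.15 ± 3.42 and *Corin* at 0.216 ± 0.197 CPM per kb (SD, n = 5). In Control *APP/PS1* the order was the same, at 54.0 ± 38.9, 3.48 ± 2.20, 2.81 ± 2.77 and 0.594 ± 0.482 CPM per kb (SD, n = 6). *Mamdc2* was the highest and *Corin* the lowest within each of the 11 *APP/PS1* samples. *Yipf7* was above *Wif1* in 8 of the 11 samples, and these neighbours did not differ beyond their spread. In both WT groups only *Mamdc2* had a mean level above the floor of 3 counts per library, at 0.188 ± 0.114 CPM per kb in Control WT (SD, n = 6) and 0.102 ± 0.111 in *Slc11a2* KD WT (SD, n = 5).

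The low *Mamdc2* level in WT samples varied too. The 4 WT samples with the highest choroid plexus marker sums, 446 to 1977 CPM, had 0.428 to 1.24 CPM of *Mamdc2*. The other 7, with sums of 1.09 to 51.8 CPM, had 0 to 0.814 CPM, so the ranges overlapped. The 5 counts of *Corin* were in 0019, which is among the first 4. The part of these cells in either value was not tested. 

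Spread between samples of one genotype was the second feature of these genes, though not of these genes alone. In Control *APP/PS1* the highest sample exceeded the lowest 7.49-fold for *Mamdc2*, 38.4-fold for *Wif1*, 20.1-fold for *Yipf7* and 51.3-fold for *Corin*. The SD of log2 CPM was 1.13, 1.90, 1.57 and 1.93 for these genes. It was larger than that of 99.1%, 99.2%, 98.7% and 99.0% of the genes whose mean level lay within a factor of 2 of theirs. In *Slc11a2* KD *APP/PS1* the SDs were 0.43, 1.87, 1.57 and 1.26, larger than in 75.2%, 99.3%, 98.9% and 76.2% of such genes. These were matched by level alone, not by a rise in *APP/PS1*. Genes higher in *Slc11a2* KD *APP/PS1* than WT differed in their spread in Control *APP/PS1*. Relative to the mean, *Gpnmb* (269 ± 180 CPM, SD), *Spp1* (351 ± 279) and *Dkk2* (31.5 ± 21.3) varied about as widely as *Mamdc2* (191 ± 138). *Clec7a* (586 ± 111), *Cst7* (433 ± 130) and *Ank* (995 ± 254) varied less. A difference in spread from such raised genes was not tested. The age of each mouse within the range of 15 to 18 months is not given in the sources used here.

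The same samples were low for all 4 genes. Control *APP/PS1* 0016 was the lowest of the 11 for each of them, at 52.0, 0.515, 0.572 and 0.191 CPM of *Mamdc2*, *Wif1*, *Yipf7* and *Corin*. *Slc11a2* KD *APP/PS1* 0004 was the lowest of its group for *Mamdc2*, *Wif1* and *Yipf7*. For *Corin* it was level with 0023, at 0.480 and 0.482 CPM from 23 and 15 counts. The top of the order was less shared. *Mamdc2* was highest in Control *APP/PS1* 0013, *Corin* in Control *APP/PS1* 0007, *Wif1* in *Slc11a2* KD *APP/PS1* 0018 and *Yipf7* in *Slc11a2* KD *APP/PS1* 0021. The total of 0016 was 53656629 counts and that of 0004 was 46910389, within the range of 34337716 to 54872491 over the 11 samples.

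**Figure D2:**
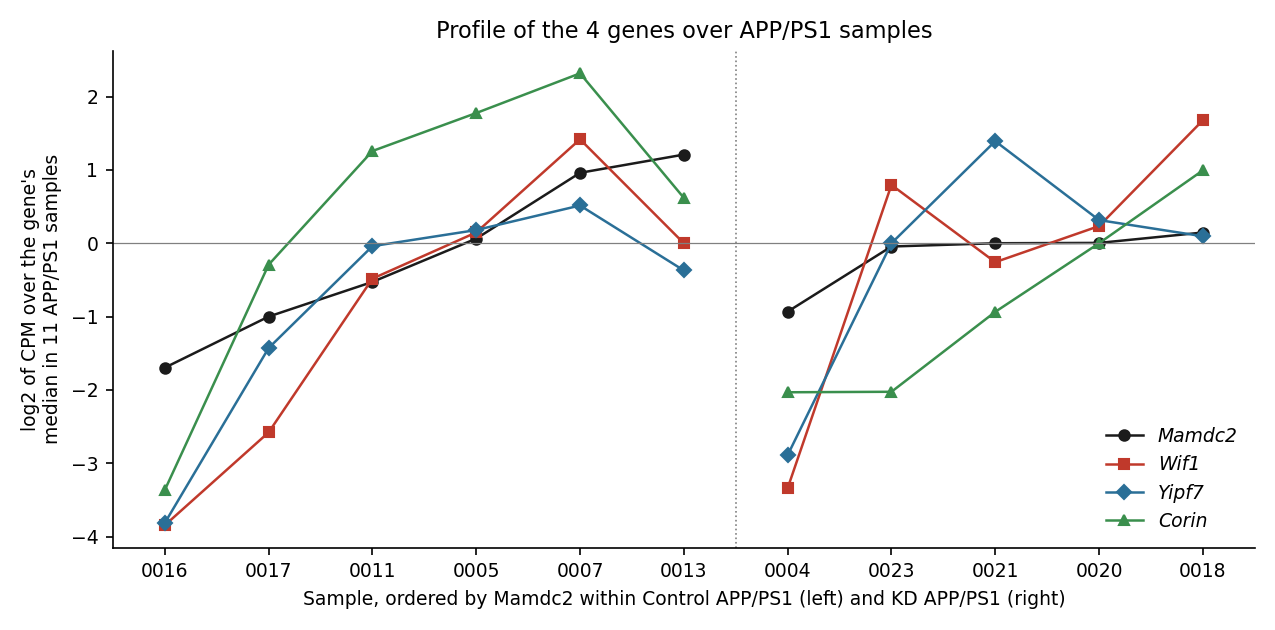
log2 of each gene's CPM over its own median in the 11 *APP/PS1* samples, with Control *APP/PS1* on the left and *Slc11a2* KD *APP/PS1* on the right, each ordered by *Mamdc2*. The lines of all 4 genes are lowest in 0016 among Control samples. Among *Slc11a2* KD samples they are lowest in 0004, level with 0023 for *Corin*.

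Over the 11 *APP/PS1* samples, all 6 pairs of the genes were positively related on the log2 CPM scale (prior count 2). The 6 Control samples among them had entered the choice of the genes through their counts, so these p-values are not independent of it. *Wif1* and *Yipf7* had r = 0.87 (permutation p = 0.00162, adjusted p = 0.00486 over the 6 pairs) and Spearman's rho = 0.69 (p = 0.0235, adjusted p = 0.047). *Mamdc2* and *Wif1* had r = 0.82 (permutation p = 0.0016, adjusted p = 0.00486) and rho = 0.77 (p = 0.00753, adjusted p = 0.0452). For *Mamdc2* and *Yipf7*, r was 0.74 (permutation p = 0.00972, adjusted p = 0.0194) and rho 0.61 (p = 0.0515, adjusted p = 0.0734). For *Corin*, r was 0.68 with *Mamdc2* (permutation p = 0.0219, adjusted p = 0.0273) and rho was 0.70 (p = 0.0202, adjusted p = 0.047). With *Wif1*, its r was 0.68 (permutation p = 0.0227, adjusted p = 0.0273) and rho 0.59 (p = 0.0612, adjusted p = 0.0734). With *Yipf7*, its r was 0.65 (permutation p = 0.0318, adjusted p = 0.0318) and rho 0.54 (p = 0.0932, adjusted p = 0.0932).

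Several of these relations weakened when 1 or 2 samples were left out. With the 2 samples farthest from the median of the first gene of a pair left out, *Mamdc2* and *Wif1* kept r = 0.88 (permutation p = 0.00133, n = 9, without 0016 and 0013) and *Mamdc2* and *Yipf7* kept r = 0.73 (permutation p = 0.0296). *Mamdc2* and *Corin* then had r = 0.56 (permutation p = 0.116). Without 0016 and 0004, *Wif1* and *Yipf7* had r = 0.57 (permutation p = 0.108), *Wif1* and *Corin* had r = 0.27 (permutation p = 0.487) and *Yipf7* and *Corin* had r = 0.02 (permutation p = 0.959). These 4 relations over the pooled groups thus no longer passed without 2 samples, which also narrowed the range of values. With 0016 alone left out, r of *Corin* was 0.51, 0.52 and 0.42 with *Mamdc2*, *Wif1* and *Yipf7* (permutation p = 0.138, 0.129 and 0.236). That of *Mamdc2* with *Yipf7* was then 0.56 (permutation p = 0.0952). *Wif1* and *Yipf7* kept r of at least 0.79 with any 1 sample left out. With the mean of each *APP/PS1* group subtracted and all 11 samples kept, r was 0.84, 0.75 and 0.73 for *Mamdc2* with *Wif1*, *Yipf7* and *Corin*, 0.86 for *Wif1* with *Yipf7*, 0.82 for *Wif1* with *Corin* and 0.79 for *Yipf7* with *Corin* (permutation p between 0.00126 and 0.0113). For the pairs of *Corin*, whose mean differed most between the groups, r was thus higher than over the pooled groups, a difference that was not tested. Within the 6 Control *APP/PS1* samples, which are 1 run of library numbers and had all entered the choice, r was 0.90, 0.79 and 0.76 for *Mamdc2* with *Wif1*, *Yipf7* and *Corin*. There it was 0.94 for *Wif1* with *Yipf7* and with *Corin* and 0.99 for *Yipf7* with *Corin*, given as a description with no test. With 5 *Slc11a2* KD *APP/PS1* samples, no relation was computed in that group alone.

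**Figure D3:**
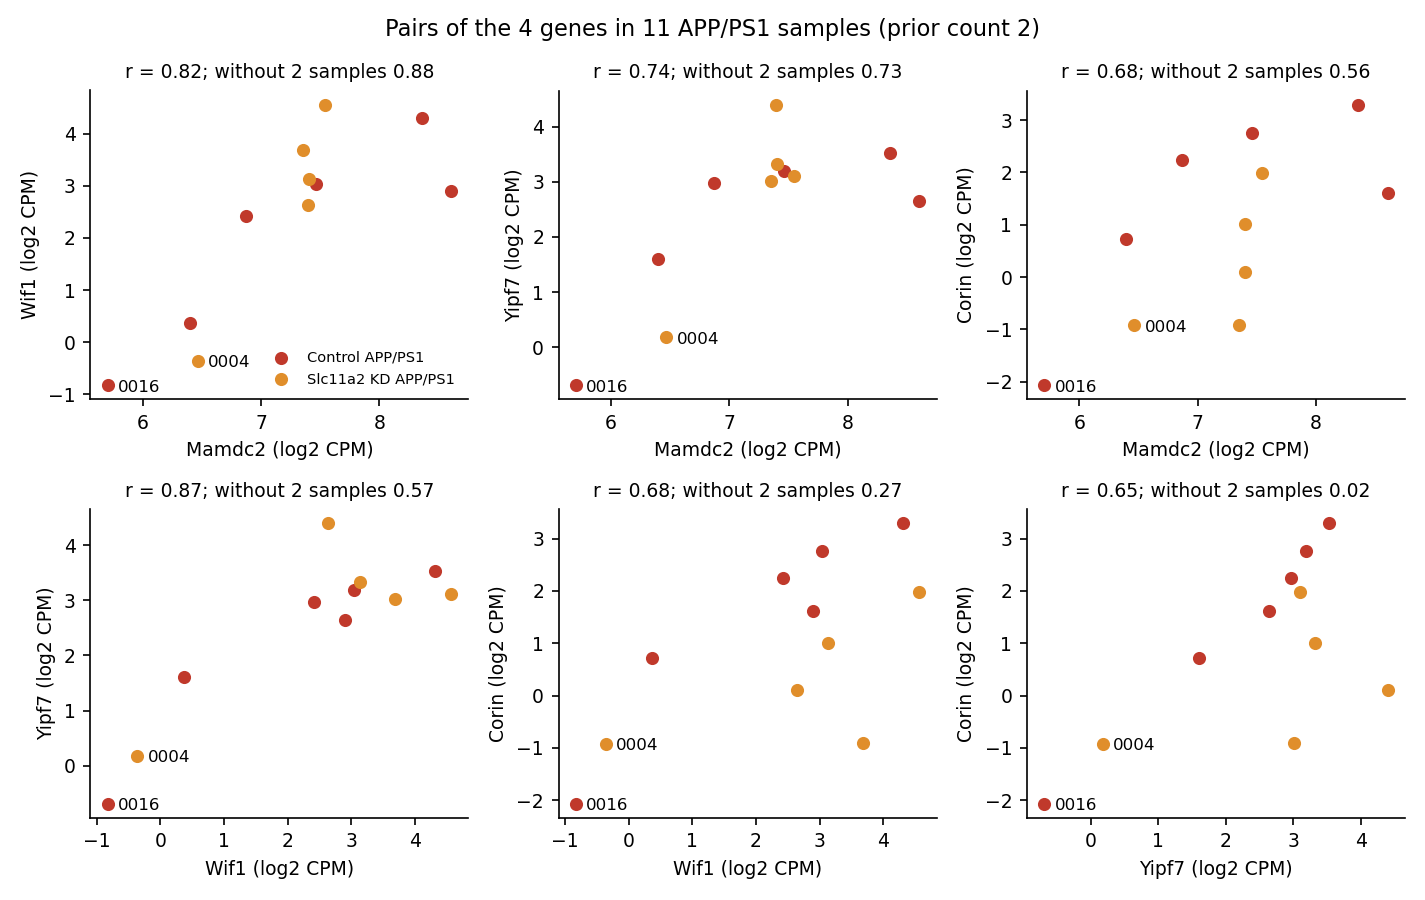
log2 CPM of each pair of the 4 genes in 6 Control *APP/PS1* (red) and 5 *Slc11a2* KD *APP/PS1* samples (orange), with Pearson's r over all 11 and without the 2 samples farthest from the median of the gene on the x axis. Samples 0016 and 0004 sit at the lower left of the panels. In the *Corin* panels most orange points lie below the red ones at a like level of the other gene.

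*Slc11a2* knockdown within *APP/PS1* gave no detectable change in any of the 4 genes. *Corin* averaged 1.57 ± 1.44 CPM (SD, n = 5) with knockdown against 4.33 ± 3.51 CPM (SD, n = 6) without it, or -1.46 in log2 (SE 0.88, edgeR, adjusted p = 0.355). *Mamdc2* averaged 155 ± 38.4 CPM against 191 ± 138 CPM, or -0.30 in log2 (SE 0.50, adjusted p = 0.80). The log2 fold changes of *Wif1* and *Yipf7* were 0.56 (SE 0.80, adjusted p = 0.761) and 0.62 (SE 0.66, adjusted p = 0.663). In edgeR 0 of the 18759 genes passed in this comparison, or 0%, with 3862 at an unadjusted p under 0.05, while DESeq2 called 449 higher and 131 lower. The Control samples of this comparison had entered the choice of the genes. Control samples were libraries 5 to 17 and *Slc11a2* KD samples were not, so the run of library numbers and the knockdown cannot be told apart here.

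Whether the effect of *APP/PS1* differed with knockdown was asked with the interaction. For *Mamdc2* it was 0.60 on the log2 scale (SE 0.85, adjusted p = 0.811, edgeR). *Wif1* and *Yipf7* had no counts in either WT group and *Corin* none in Control WT and 5 in 1 *Slc11a2* KD WT sample, so no interaction is given for them.

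Promoter sequence was at hand for *Wif1* and *Corin* in a RefSeq table on GRCm38.p6, an older build than that of the gene positions above, and these are shown since both genes were at 0 in Control WT and moved with each other in Control *APP/PS1*. *Mamdc2* and *Yipf7* are named only. The 250 bases before the start are printed 5′ to 3′ on the gene's strand, at chr10:121033754-121034003 (plus) for *Wif1* and chr5:72504541-72504790 (minus) for *Corin*. Capitals mark the matches to 6 motifs searched on both strands, GAGGAA of PU.1 and other ETS factors, CACGTG of MITF and TFE factors, TGANTCA of AP-1, the interferon-stimulated response element, CTTTGA of TCF and LEF factors, and TATAAA of the TATA box.
Wif1: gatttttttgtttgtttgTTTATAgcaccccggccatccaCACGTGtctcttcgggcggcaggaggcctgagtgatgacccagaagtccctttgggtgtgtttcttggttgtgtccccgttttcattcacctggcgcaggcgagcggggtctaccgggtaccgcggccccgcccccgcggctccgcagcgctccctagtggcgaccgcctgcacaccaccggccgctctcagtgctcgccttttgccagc
Corin: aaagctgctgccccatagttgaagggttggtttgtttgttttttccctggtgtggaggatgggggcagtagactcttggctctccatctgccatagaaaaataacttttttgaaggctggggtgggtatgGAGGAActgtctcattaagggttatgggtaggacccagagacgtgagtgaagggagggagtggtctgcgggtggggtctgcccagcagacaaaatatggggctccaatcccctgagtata

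The *Corin* window held GAGGAA once, 120 to 115 bases before the start, as did 23.3% of the 32851 promoter windows of the table in at least 1 place. The *Wif1* window held CACGTG once, 210 to 205 bases before the start, found in 6.02% of windows, and TATAAA once on the other strand, 232 to 227 bases before it, found in 12.4%. The matches did not overlap each other. Neither window held TGANTCA, the interferon-stimulated response element or CTTTGA, which were in 6.75%, 2.98% and 13.8% of windows. No motif of the 6 was in both windows. The windows differed in composition, with 62.8% G and C and 21 CpG in *Wif1*, and 51.2% and 2 CpG in *Corin*, where the medians over genes were 52% and 6.

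Of the WNT pathway, *Wif1* belongs to the secreted antagonists, 8 of which were tested in *Slc11a2* KD *APP/PS1* against WT. *Wif1* and *Dkk2*, which binds the LRP co-receptors, were higher and 0 were lower, where 9.77% of all genes were higher and 6.41% lower. *Dkk2* averaged 20.4 CPM (n = 5) against 0.114 CPM, with a log2 fold change of 7.42 (SE 1.01, adjusted p = 2.06e-05, edgeR). The median of the 8 was -0.13, against -0.07 for all genes tested. Of 8 WNT ligands tested, 0 passed in edgeR, with 2 at an unadjusted p under 0.05 and 1 lower with DESeq2. Of 14 receptors, the Frizzled receptor gene *Fzd9* was higher (3.74, SE 0.83, adjusted p = 0.00331) and *Fzd4* lower (-0.86, SE 0.20, adjusted p = 0.00454). Of 10 common WNT target genes, the cyclin gene *Ccnd1* was lower (-0.65, SE 0.14, adjusted p = 0.00295) and 0 were higher. The median of these targets was -0.60.

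Relatives of the other genes were counted in the same comparison, where 9.77% of all genes were higher and 6.41% lower. Among 9 genes of the YIP family, *Yipf7*, *Yif1a* (0.61, adjusted p = 0.0235, edgeR) and *Yif1b* (0.56, adjusted p = 0.0137) were higher and 0 lower, with 7 of the 9 at an unadjusted p under 0.05 and 5 higher by DESeq2. *Yif1a* rose from 55.0 to 84.2 CPM and *Yif1b* from 80.9 to 119 CPM, so these were genes already expressed in WT. Of 5 type II transmembrane serine proteases tested, *Corin*, *St14*, which encodes matriptase (2.13, adjusted p = 1.25e-07), and *Hpn*, which encodes hepsin (1.11, adjusted p = 0.00598), were higher. *St14* had 107 CPM in *Slc11a2* KD *APP/PS1* against 24.4 CPM in *Slc11a2* KD WT. Of 8 genes of the natriuretic peptide system, only *Corin* passed in edgeR, with 2 higher by DESeq2. Of 10 genes with MAM domains, only *Mamdc2* did.

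Of the disease-associated microglia list, 23 of 25 genes were higher and 0 lower, against 9.77% of all genes higher, with a median log2 fold change of 2.75. This list was known from amyloid models before, and it holds *Gpnmb*, a lysosomal glycoprotein gene, at 7.69 (SE 1.357, adjusted p = 0.000427, edgeR), *Fabp5*, a fatty acid binding protein gene, at 6.10 (SE 0.63), *Cst7*, which encodes cystatin F, at 5.38 (SE 0.61) and *Ch25h*, a cholesterol hydroxylase gene, at 4.19 (SE 0.63). *Gpnmb* still averaged 0.961 CPM in *Slc11a2* KD WT and *Cst7* 7.84 CPM. Of 16 interferon response genes, 7 were higher and 0 lower against the same share, with a median of 1.01. They were led by *Ifi27l2a* at 2.16 (SE 0.41, adjusted p = 0.000831), *Oasl2* at 1.53, *Ifit2* at 1.40 and *Bst2* at 1.178.

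**Figure D4:**
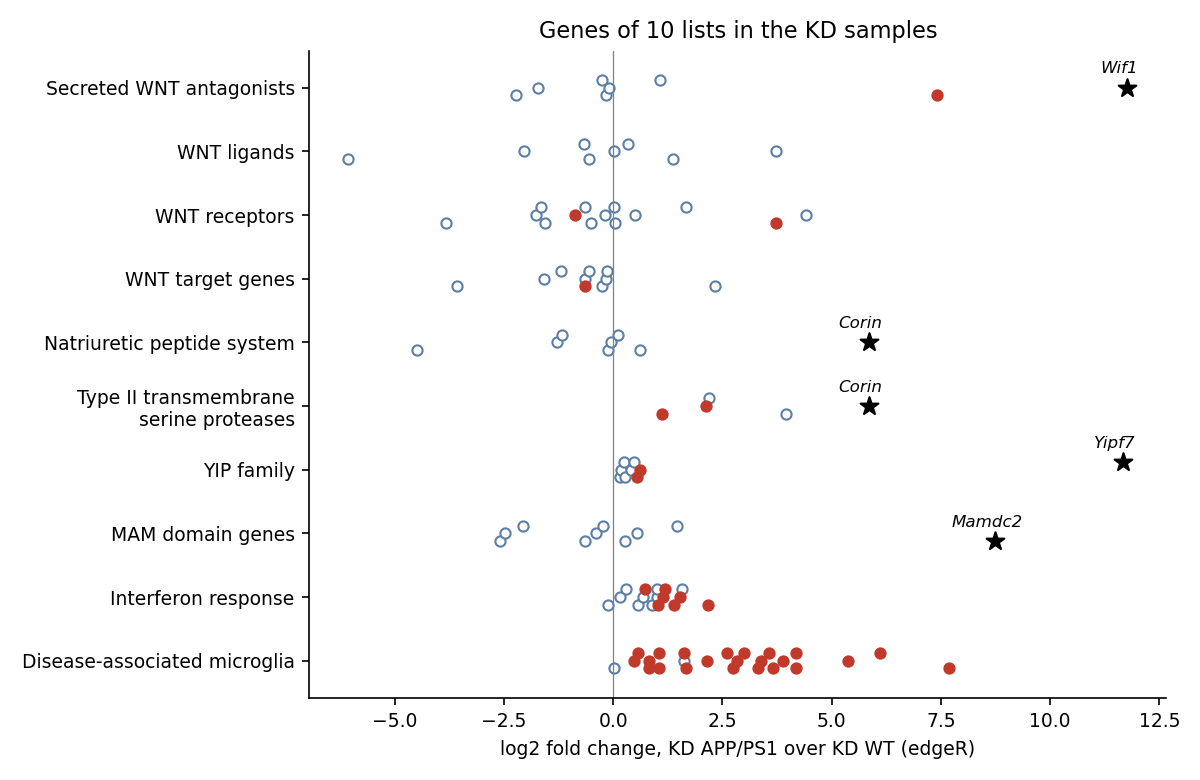
log2 fold change in *Slc11a2* KD *APP/PS1* (n = 5) over *Slc11a2* KD WT (n = 5) of each tested gene of 10 lists. Filled points passed an adjusted p of 0.05 (edgeR), open points did not, and stars are the 4 genes, of which *Wif1* and *Yipf7* are fitted against groups at 0 counts so that their place depends on the prior count.

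The mean log2 CPM of the 25 disease-associated genes within the *APP/PS1* genotype was 9.01 ± 0.20 with knockdown (SD, n = 5) and 9.11 ± 0.32 in Control (SD, n = 6). It was 8.71 in 0004 and 8.89 in 0016, the low samples of the 4 genes, and lowest in Control *APP/PS1* 0017 at 8.63. Sample 0017 was also low for the genes, at rank 2, 3, 3 and 5 from the lowest for *Mamdc2*, *Wif1*, *Yipf7* and *Corin*. Across the 11 *APP/PS1* samples this score was related to *Mamdc2* with r = 0.72 (permutation p = 0.0128) and rho = 0.85 (p = 0.00122). For *Wif1*, *Yipf7* and *Corin*, r was 0.65, 0.61 and 0.65 (permutation p = 0.0332, 0.0435 and 0.0296) and rho 0.54, 0.67 and 0.67 (p = 0.0942, 0.0272 and 0.0275). Over these 4 relations the adjusted p was 0.0435 for each r and lay between 0.00488 and 0.0942 for rho. The 6 Control samples among the 11 had entered the choice of the genes, so these p-values are not independent of it. The relation with the score was added after the data were seen. Without 0017 and 0004, the samples farthest from the median score, r was 0.62, 0.36, 0.44 and 0.73 in the same order (permutation p = 0.0725, 0.343, 0.26 and 0.0262), so only that with *Corin* passed then. The relation with *Corin* did not pass without 0004 alone (r = 0.59, permutation p = 0.0703) or without 0005 alone (r = 0.58, permutation p = 0.0785). Within Control *APP/PS1* alone, r was 0.72, 0.74, 0.61 and 0.59 (n = 6), given with no test.

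In *Slc11a2* KD *APP/PS1* against WT, 6 of 7 markers of microglia, the labelled cell type, were lower, where 6.41% of all genes were, among them *P2ry12* (-1.03) and *Tmem119* (-0.92). Of other cell types that the beads could have carried along, the lower markers were 4 of 7 endothelial, 3 of 7 border macrophage, 2 of 8 oligodendrocyte and 1 of 7 mural and fibroblast markers. The single marker genes that were higher were *Gfap* (3.47, adjusted p = 4.85e-06, edgeR) of 8 astrocyte markers and *Cspg4* (3.39, adjusted p = 0.0011) of 5 oligodendrocyte precursor markers. The summed astrocyte markers ran from 108 to 683 CPM in *Slc11a2* KD *APP/PS1* and from 131 to 503 CPM in WT. The summed precursor markers ran from 9.01 to 31.5 CPM and from 3.33 to 7.41 CPM, and *Cspg4* with its mean of 14.9 CPM made up most of the former. The median log2 fold change of the 5 precursor markers was -1.35, with 0 lower past the threshold, so *Cspg4* did not stand for its list. Neuronal, choroid plexus, monocyte and neutrophil, and lymphocyte lists held 0 genes past the threshold in edgeR, with 2, 0, 3 and 1 at an unadjusted p under 0.05 and 2, 0, 1 and 0 by DESeq2. The part of any of these cells in the levels of the 4 genes was not tested.

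Genes near the 4 loci were examined, since *Yipf7* and *Corin* share chromosome 5. Within 500 kb, 10 genes near *Mamdc2*, 2 near *Yipf7* and 9 near *Corin* were tested and 0 passed in edgeR in *Slc11a2* KD *APP/PS1* against WT. At an unadjusted p under 0.05 there were 2, 0 and 2, and DESeq2 called 1, 0 and 1. *Yipf7* and *Corin* lie 2757 kb apart, and of the 9 tested genes between them 0 passed in edgeR or DESeq2, with 1 at an unadjusted p under 0.05. Near *Wif1*, 4 of 10 passed, where 16.2% of all genes did. *Rassf3*, a Ras association domain gene 308 kb from *Wif1*, was higher at 168 against 79.6 CPM (log2 fold change 1.08, SE 0.12, adjusted p = 1.05e-06). *Lemd3*, which encodes an inner nuclear membrane protein and is the closest of the 4 at 54.0 kb, was lower by the log2 fold change of -0.61 (SE 0.16, adjusted p = 0.0108), as were *Tbk1*, a kinase gene of innate immunity (-0.41, adjusted p = 0.046), and the exportin gene *Xpot* (-0.61, adjusted p = 0.00864). Near *Wif1*, 1 of 10 was thus higher and 3 of 10 lower, where 9.77% and 6.41% of all genes were.

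**Figure D5:**
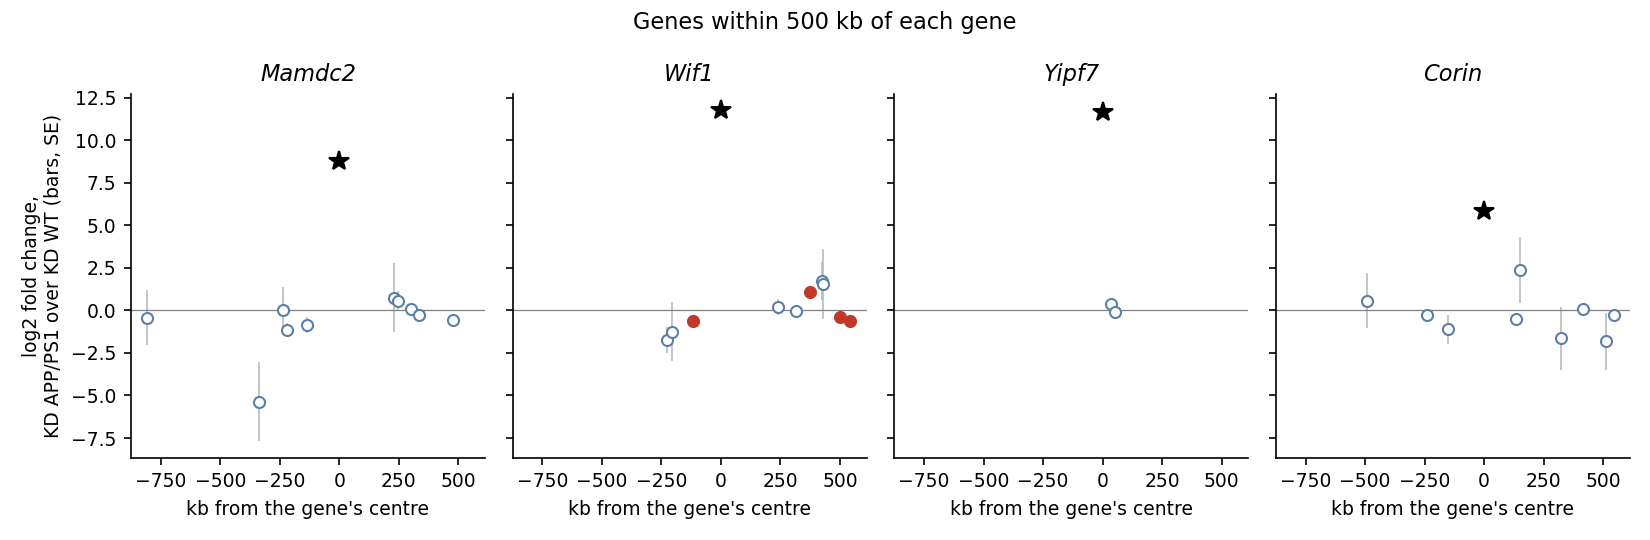
log2 fold change in *Slc11a2* KD *APP/PS1* over *Slc11a2* KD WT of the genes tested within 500 kb of each of the 4 genes, against the distance between gene centres in kb. Bars are standard errors, filled points passed an adjusted p of 0.05 (edgeR), and stars are the 4 genes. Filled points appear only around *Wif1*, and *Rassf3* is the 1 above 0.

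The 5 genes most like each of the 4 over the 11 *APP/PS1* samples were taken by Pearson's r of log2 CPM among 11742 genes with a mean of at least 1 CPM. With no test attached, r lay between 0.88 and 0.96 for these 20 places, held by 18 genes. For *Mamdc2* they were the cation channel gene *Trpc4* (r = 0.94), *Ephx1*, an epoxide hydrolase gene (0.92), *Ldlrad3* (0.90), *Vat1* (0.90) and *Prnp* (0.89), the gene whose promoter drives the transgenes. For *Wif1* they were the magnesium transporter gene *Slc41a2* (0.93), *Stap1* (0.92), *Trpc4* (0.91), *Vat1* (0.91) and *Rab3a* (0.91). For *Yipf7* they were *Cpeb1*, which encodes an RNA-binding regulator of translation (0.96), *Bex3* (0.95), the neuropeptide gene *Cck* (0.93), the growth factor gene *Igf1* (0.92) and the phosphatase gene *Ptpro* (0.91). For *Corin* they were *Wipf3* (0.93), the polysialyltransferase gene *St8sia4* (0.93), *Ctnna3* (0.89), *Sestd1* (0.89) and *Dhx40* (0.88). *Trpc4* and *Vat1* were thus shared by *Mamdc2* and *Wif1*, and no gene was shared with *Yipf7* or *Corin*.

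Of these 18 genes, 11 were higher in *Slc11a2* KD *APP/PS1* than WT and 0 lower, where 9.77% of all genes were higher. They had to reach a mean of 1 CPM in *APP/PS1* samples, which favours genes higher there, so nothing is read from this count. Of the 18, *Trpc4* had the highest fitted log2 fold change, at a mean of 0.183 CPM over WT and 2.695 CPM over *APP/PS1* samples (log2 fold change 5.63, adjusted p = 0.00179, edgeR). *Ctnna3* was at 0.0693 and 1.92 CPM (4.89, adjusted p = 0.0143), and *Cpeb1* at 1.497 and 26.2 CPM (4.36, adjusted p = 1.77e-05). *Igf1* was at 11.3 and 231 CPM (4.19, adjusted p = 1.49e-08). *Rab3a*, *Ptpro* and *Dhx40* followed *Wif1*, *Yipf7* and *Corin* among *APP/PS1* samples but had log2 fold changes of 0.09, -0.05 and -0.04 between genotypes (adjusted p = 0.881, 0.774 and 0.877). *Prnp* was at 7.50 CPM over WT and 18.9 CPM over *APP/PS1* samples (1.37, adjusted p = 0.00853).

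The 4 genes were set against all genes by a numerical form of the rule, at most 1 CPM in every Control WT sample and at least 10 counts in every Control *APP/PS1* sample. It was met by 276 genes, *Wif1*, *Yipf7* and *Corin* among them and *Mamdc2* not, since 0015 had 1.24 CPM. Many of these were low in both genotypes, and 38 of the 276, or 13.8%, were higher in *Slc11a2* KD *APP/PS1*, where 9.77% of all genes were. The 5 with the highest medians in Control *APP/PS1* were *Dkk2* (30.8 CPM), *Lgi2* (20.2 CPM), *Trpm1*, a cation channel gene (13.1 CPM), *Cd5* (10.1 CPM) and *Cited4* (9.05 CPM), all higher in *Slc11a2* KD *APP/PS1* with log2 fold changes of 7.42, 6.25, 9.62, 2.53 and 5.59. The 5 with the lowest medians, 0.236 to 0.298 CPM, were *9330136K24Rik*, *Gm6170*, *Amd-ps3*, *Gm56856* and *Gm6485*, of which the first passed (adjusted p = 0.00525). Just inside the limit were *Hmgb3* and *Bambi-ps1* at 0.995 CPM, and just outside it *C030034L19Rik* and *Grtp1* at 1.00 CPM.

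A count of exactly 0 in every Control WT sample with at least 10 in every Control *APP/PS1* sample was met by 6 genes. They were *Wif1*, *Yipf7* and *Corin* and, named after their values were seen, *Gm38335*, *Serpinb1c* and *Or5an9*. All but *Corin* were also at 0 in every *Slc11a2* KD WT sample. *Gm38335*, at a median of 3.65 CPM and a lowest value of 0.772 CPM in *Slc11a2* KD *APP/PS1*, separated the KD groups without overlap as the 3 genes did. *Serpinb1c* and *Or5an9* had at least 1 *Slc11a2* KD *APP/PS1* sample at 0. *Corin*, with 10 counts in 0016, was at the lower limit itself.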

How the data were processed

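The authors trimmed reads with Trim Galore 0.6.7, aligned them to mm39 with STAR and deposited counts per gene, whole numbers not normalized. They also deposited a signal table, the same counts divided by DESeq2 size factors, which was checked against the counts and not used further. No strand setting was stated. Control *APP/PS1* 0010 was left out: the study removed 1 sample of that group, and 0010 is absent from its heat map. The 18759 genes that reached 5 counts in 3 or more of the 22 samples were TMM-scaled and entered edgeR 4.0.16 (quasi-likelihood, 4 groups in 1 fit, Benjamini-Hochberg over all genes, threshold 0.05). Groups came from the sample labels. CPM are TMM-scaled, log2 CPM used a prior count of 2, and correlations 100000 permutations. Positions and exon lengths came from GENCODE M39, which holds 18731 of the 18876 genes. On simulated counts edgeR recovered 77.5% of 200 genes changed by 1.5 on the log2 scale, with 4 false calls. DESeq2 recovered 83%, with 40 false calls. The changed genes averaged at least 1 CPM before the change, above the mean WT level of the 4 genes. The genes and gene lists were chosen with earlier results of these data known. Genes named by rule were the 4, their 5 most alike, the 5 highest and lowest by the numerical rule, up to 4 called genes per list and called neighbours within 500 kb. Alternatives were DESeq2 1.42.0, limma voom 3.58.1, DESeq2 size factors, no filter, 0010 kept, only the compared groups, libraries 18 to 23 as a covariate, a prior count of 0.5, plain totals and each sample left out. Lists without *Slc11a2* KD *APP/PS1* 0004, tests within libraries 18 to 23 and the relation with the disease-associated score were added after the data were seen.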

Additional observations from a re-analysis of the deposited data

Results flagged for a closer look

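*Slc11a2* KD *APP/PS1* 0004 stood apart from the other 4 samples of its group in *Mamdc2*, at 88.3 CPM against 163 to 187 CPM. *Slc11a2* KD WT 0019 stood apart in *Corin*, at 0.122 CPM where the other 4 samples had 0 counts, a value that rests on 5 counts. These were 2 of the 11 sets of samples examined for a sample far from the rest, a check that chance trips in about 1 of 20 sets. With the other 4 samples at 0, any count of *Corin* in 0019 would have stood apart, so that rate does not apply to it.

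The left-out sample Control *APP/PS1* 0010, scaled with all 23 samples, also held all 4 genes above every WT sample. It had 88.0 CPM of *Mamdc2* and 0.922 CPM of *Wif1*, low in the range of Control *APP/PS1*, and 4.87 CPM of *Yipf7* and 1.56 CPM of *Corin*.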

How the results depend on the processing

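No paired analysis was possible because the groups share no replicate numbers in the labels. The higher level of all 4 genes in *Slc11a2* KD *APP/PS1* than WT passed in every alternative fit of edgeR, DESeq2 and limma voom and with each sample left out. The exact test within libraries 18 to 23 gave log2 differences of 7.96 for *Mamdc2*, 7.89 for *Wif1*, 7.85 for *Yipf7* and 4.02 for *Corin*, with too few samples to pass. Between *Slc11a2* KD and Control *APP/PS1*, libraries 18 to 23 as a covariate, a term that rests on 0004 among *APP/PS1* samples, turned *Wif1* to -3.16 and *Yipf7* to -2.45 and moved *Mamdc2* to -1.44 and *Corin* to -3.59. Leaving out each sample moved *Mamdc2* between -0.50 and 0.035, *Wif1* between -0.0334 and 1.202, *Yipf7* between 0.11 and 0.91 and *Corin* between -2.16 and -1.04, and 0 genes of the 4 passed.

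Of relations between the genes, 23 of 30 alternatives and 57 of 66 fits with a sample left out kept their side of the 0.05 threshold of the permutation test. For the disease-associated score these were 16 of 20 and 33 of 44, all with the same sign. Values within Control *APP/PS1*, not counted here, are descriptions. *Yipf7* missed it without any 1 of 0004, 0007, 0011, 0017, 0018, 0020 or 0021 (r from 0.51 to 0.66 over the samples left out), *Wif1* without 0004 or 0017 (0.55 to 0.73) and *Corin* without 0004 or 0005 (0.58 to 0.76). Among the pairs, Spearman's rho missed it at 0.61 (*Mamdc2* and *Yipf7*), 0.59 (*Wif1* and *Corin*) and 0.54 (*Yipf7* and *Corin*). Without the 2 farthest samples r was 0.56 (*Mamdc2* and *Corin*), 0.57 (*Wif1* and *Yipf7*), 0.27 (*Wif1* and *Corin*) and 0.0225 (*Yipf7* and *Corin*), and as a description it was 0.76 within Control *APP/PS1* (*Mamdc2* and *Corin*). With each sample left out, r ran from 0.56 to 0.85 (*Mamdc2* and *Yipf7*), 0.51 to 0.75 (*Mamdc2* and *Corin*), 0.52 to 0.84 (*Wif1* and *Corin*) and 0.42 to 0.79 (*Yipf7* and *Corin*). Each was lowest without 0016 and then missed a p of 0.05. Without 0007, the 3 relations of *Corin* missed a p of 0.05 as well, as did those with *Wif1* and *Yipf7* without 0004.

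With DESeq2, calls were 1 lower WNT ligand, 2 higher and 3 lower receptors, 2 lower WNT targets, 2 higher natriuretic, 5 higher YIP and 1 lower MAM gene, and 5 lower oligodendrocyte, 2 neuronal, 2 mural and fibroblast and 1 monocyte and neutrophil markers, and 5 lower neighbours. Without 0004 they were 4 lower receptors, 2 lower WNT targets, 6 higher YIP, 2 lower MAM, 0 lower mural and fibroblast genes and 5 lower neighbours. With 0010 kept, some calls were lost. They included 2 higher YIP, 6 higher interferon and 22 higher disease-associated genes, and 5 lower microglial and 3 lower endothelial markers. The cause of these changes was not tested.

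The 4 genes rest on few reads where they are low, with 10 counts of *Corin* in 0016 and 5 in 0019. A count of 0 in a library of this depth allows about 0.07 CPM. By the study's methods the samples are biological replicates.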
